A study of Homo sapiens with 4 samples.

Results

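Broad 3′ UTR m6A peaks were taken here as the peaks that the deposited annotation placed in a 3′ UTR and that were at least 600 bp long, each counted once by chromosome, start, end and strand. They were chosen by the deposited width, so their length is a description and not a result. There were 1766 of them among 8535 3′ UTR peaks and 19929 peaks of all features after meclofenamic acid (MA). In the control (NC) there were 1625 among 9296 3′ UTR peaks and 22067 peaks of all features. The cells were OMM2.3, labelled wt, which is an established line of human uveal melanoma, and they were exposed for 24 h to MA or to DMSO. MA is a nonsteroidal anti-inflammatory drug that also inhibits the m6A demethylase FTO. Each condition had 1 input library and 1 library from immunoprecipitation with beads carrying an m6A antibody (RIP), from a single line, and no condition had a replicate. No p-value or SD could therefore be given, and every difference describes these libraries.

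N6-methyladenosine (m6A) is a methyl mark that a complex built around METTL3 and METTL14 places on adenosines of nascent mRNA. It is found mostly in long exons, around stop codons and in 3′ UTRs. FTO and ALKBH5 remove it, and readers such as the YTHDF proteins bind it and are known for promoting decay of marked transcripts. In methylated RNA immunoprecipitation the RNA is broken into short fragments before capture, so a peak far longer than a fragment is a stretch over which many fragments were enriched, and the method does not say how many marked bases it holds.

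The totals behind the per-million scale of the inputs, recovered from the FPKM values, were 41630895 in MA and 37041597 in NC, and the depth of the RIP libraries is unknown. All 7 melanocyte markers of a fixed list were at 1 FPKM or more, with summed levels of 3172 FPKM in MA and 7307 FPKM in NC. Some markers of other cell types were absent from the gene table and had no value. It held 2 of 4 endothelial, 4 of 4 epithelial, 4 of 6 fibroblast and 3 of 5 immune markers. Of the endothelial and epithelial markers held, none reached 1 FPKM. LUM was the only fibroblast marker held to do so, at 12.0 FPKM in MA and 4.96 FPKM in NC. CD68 was the only immune marker held to do so, at 89.9 FPKM in MA and 111 FPKM in NC. In bulk RNA, fewer cells of a type and less RNA per cell cannot be told apart.

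Broad peaks made up 20.7% of the 3′ UTR peaks in MA (exact 95% interval 19.8 to 21.6) and 17.5% in NC (16.7 to 18.3). The intervals here and below are Clopper-Pearson intervals and cover counting error only. The broad peaks lay in 1690 genes in MA and 1561 genes in NC. Of these genes 1050 had a broad peak in both lists, 640 in the MA list only and 511 in the NC list only. Broad peaks held 45.8% of all 3′ UTR peak length in MA and 40.7% in NC. Their median length was 845 bp in MA and 840 bp in NC. In MA 557 reached 1000 bp and 43 reached 2000 bp, against 479 and 39 in NC. The distribution had no step at the threshold. Exactly 51 peaks of 600 bp lay just inside it in MA and 43 of 599 bp just outside, against 52 and 56 in NC. Among the just-inside peaks was one over AGO2, the slicing Argonaute of microRNA silencing, at 600 bp in MA and 600 bp in NC.

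**Figure D1:**
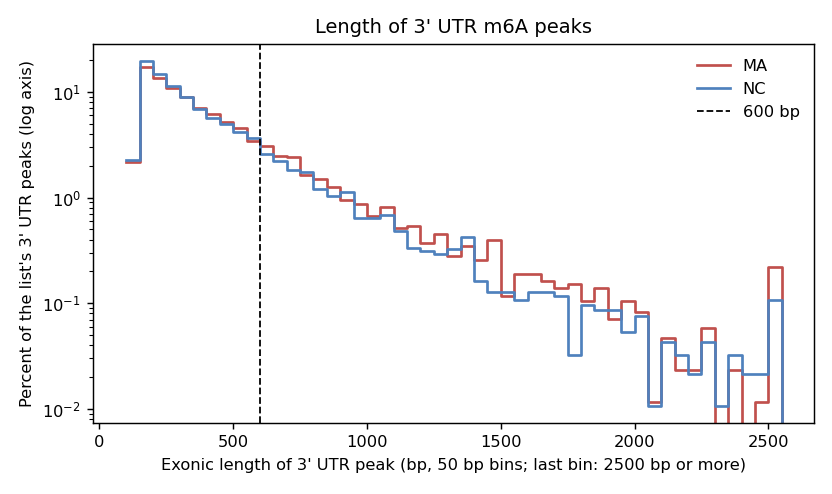
Length of 3′ UTR m6A peaks in the MA and NC lists, as the percent of each list's 3′ UTR peaks (log axis) in 50 bp bins of exonic length (bp), with peaks of 2500 bp or more in the last bin. The curves fall smoothly through the 600 bp line, and MA has the larger share beyond it, 20.7% against 17.5% in NC.

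The length is exonic length. It was never above the distance from start to end, and it equalled that distance for peaks within a single exon. In MA 951 broad peaks (53.9%) lay within 1 exon and 815 ran over introns, against 988 (60.8%) and 637 in NC. The annotation gives each peak a single feature, so a long peak that ends in the 3′ UTR can run through several coding exons and still be called 3′ UTR. Each peak carried the strand of its gene, and whether the libraries kept strand is not given in the sources used here. In MA 48 broad peaks overlapped a peak on the opposite strand from start to end, introns included, against 57 in NC. Where both peaks lay within 1 exon the numbers were 19 in MA and 29 in NC. Reads from exonic bases that such a pair shares cannot be told apart without strand.

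The longest broad peaks lay over MKI67 and CENPF, genes of dividing cells. MKI67, which encodes the proliferation antigen Ki-67, had a peak of 8487 bp in MA at chr10:128098106-128109900 (GRCh38.p13, minus strand). In NC the same stretch held a 3′ UTR peak of 4892 bp at chr10:128098057-128105827 and an exon peak of 3545 bp at chr10:128105927-128109900. The MA peak therefore spanned both NC peaks, which were separated by a short gap. CENPF, a kinetochore protein gene, had an MA peak of 8467 bp at chr1:214629085-214664023 on the plus strand. There NC had 4 peaks of 3836, 200, 648 and 3239 bp. Input levels of both genes were higher in MA. MKI67 was at 48.7 FPKM in MA and 20.8 FPKM in NC (log2 difference 1.19), and CENPF at 35.7 FPKM in MA and 14.4 FPKM in NC (1.25). Throughout, an input difference is the log2 of the MA level plus 1 over the NC level plus 1, which understates the difference of low genes.

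The next longest peaks in MA repeated this arrangement over other genes. SCAF11, a gene of an SR-related splicing protein, had a peak of 3745 bp in MA and 4 peaks of 1000, 1150, 950 and 300 bp in NC, with input at 8.92 FPKM in MA and 3.26 FPKM in NC. ZNF721, a C2H2 zinc finger gene, had 3579 bp within 1 exon in MA at chr4:440833-444411 and 6 peaks of 250 to 498 bp in NC, with input at 8.45 FPKM in MA and 2.69 FPKM in NC. RBBP6, a ubiquitin ligase gene that also acts in mRNA 3′ end processing, had 3440 bp in MA. In NC it had peaks of 1845 and 998 bp that were annotated as exon, with input at 10.2 FPKM in MA and 6.17 FPKM in NC. Other long peaks were a single peak in both lists. DAG1, the dystroglycan gene, had 3197 bp in MA and 3047 bp in NC, and SLK, a Ste20-like kinase gene, had 2938 bp in MA and 2839 bp in NC. For FEM1A, a substrate adaptor of a ubiquitin ligase, MA had 2 peaks of 1999 and 550 bp where NC had one of 2748 bp.

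Most genes had a single broad peak. In MA 4 genes had 3 or more, namely H6PD, MICAL3, ZKSCAN1 and ZNF37A. In NC the genes with 3 or more were ERC1, MICAL3, POLR1A, SOGA1, THUMPD1, ZBTB40 and ZNF618. MICAL3, an actin-oxidising monooxygenase gene, had 4 in MA (1748, 700, 650 and 600 bp) and 3 in NC (899, 700 and 700 bp). THUMPD1, a gene for an RNA acetylation adaptor, had 3 in NC (801, 600 and 601 bp), where MA had one 3′ UTR peak of 1949 bp and a peak of 800 bp annotated as 5′ UTR.

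Longer peaks had higher fold enrichment within each list. Fold enrichment of RIP over input is the authors' value for each peak, and it was read only within its own list. It comes from the same peak call as the length, as does the false discovery rate. These values and the length are not measured apart, so their relation is a description. In the MA list broad 3′ UTR peaks had a median of 4.25 and narrow ones 3.00. In the NC list the medians were 5.25 for broad and 3.44 for narrow peaks. In MA the median climbed from 2.50 in peaks under 200 bp to 5.38 in those of 2000 bp or more. In NC it went from 2.83 to 6.51 in peaks of 1500 to 2000 bp and was 5.86 in the 39 longest. Narrow peaks with enrichment below 3 made up 47.7% of the narrow set in MA, while 14.4% of the broad set lay that low. In NC the shares were 6.03% of broad peaks and 35.7% of narrow ones. The largest false discovery rate among broad peaks was 0.0229 in both lists, by the authors' values, while 40 narrow MA peaks and 62 narrow NC peaks were at 0.05 or more.

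Fold enrichment of broad peaks reached 28.0 in MA and 28.0 in NC. Among broad peaks whose gene reached 5 FPKM in each of the inputs, the highest in MA was one of 745 bp over C17orf80 at fold 22.0, where NC had a peak of 696 bp. CTIF, a factor of cap-dependent translation, followed at 19.0 with 700 bp in MA and a narrow NC peak of 351 bp. Under the same limit the highest in NC was SBF2, a myotubularin-related gene, at 24.0 with 748 bp, and MA had narrow peaks of 349 and 200 bp there. CABLES2 followed at 21.0 with 798 bp in NC, and the MA peak there was longer at 1893 bp. These genes were between 5.31 and 13.2 FPKM in the inputs.

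Nearly all broad peaks had a partner on the same strand in the other list. Of the MA broad peaks 99.4% (99.0 to 99.7) overlapped an NC peak by at least 1 bp, against 79.7% of MA peaks of all features and 77.8% of narrow MA peaks. Of the NC broad peaks 99.2% (98.6 to 99.6) overlapped an MA peak, against 73.8% of NC peaks of all features and 70.3% of narrow NC peaks. Overlap was taken from start to end, introns included, and a longer peak has more bases to overlap with. A measure per base gave a smaller gap. Over broad peaks within 1 exon, 77.3% of bases in MA and 73.6% in NC were covered by a one-exon peak of the other list. For narrow peaks within 1 exon the shares were 60.9% in MA and 51.5% in NC.

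The partner was often not broad itself. In MA the partner was a broad 3′ UTR peak for 60.9% (58.6 to 63.2), a narrow 3′ UTR peak for 30.0% and a peak of another feature for 8.55%. In NC the shares were 66.4% (64.0 to 68.7), 26.1% and 6.71%. Among the partners of another feature, 84 were annotated as exon and 36 as stop codon for MA broad peaks, against 55 and 23 for NC broad peaks. HTR2B, a serotonin receptor gene used as a risk marker in uveal melanoma, shows how a label can move. Its MA peak of 1051 bp was annotated as 3′ UTR and the NC peak of 901 bp as exon, with the same end at 231113749 on chromosome 2. KLF10 differed in another way, by a division of the stretch in MA. There it had a 3′ UTR peak of 599 bp, just under the threshold, and a peak of 847 bp annotated as 5′ UTR. In NC it had a single 3′ UTR peak of 1197 bp.

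**Figure D2:**
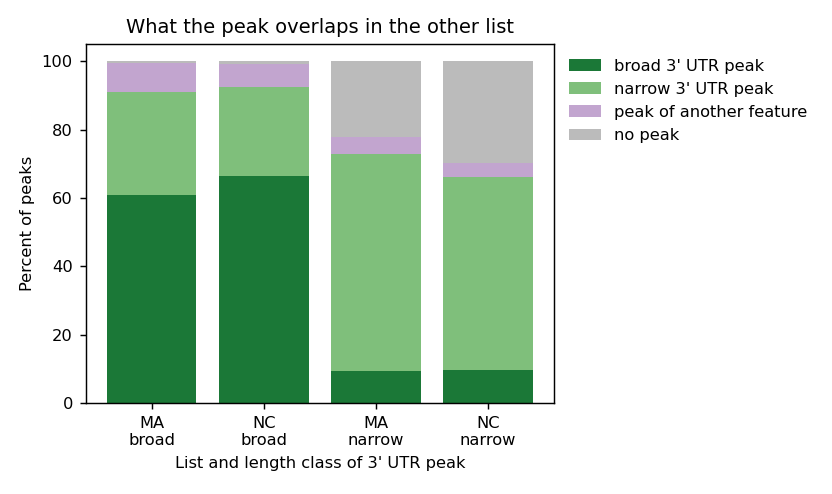
Percent of broad (600 bp or more) and narrow 3′ UTR peaks of each list by what they overlap in the other list by at least 1 bp. No partner was found for 0.566% of broad MA and 0.8% of broad NC peaks, against 22.2% of narrow MA and 29.7% of narrow NC peaks.

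Only 10 broad MA peaks and 13 broad NC peaks had no partner. UQCR11, which encodes a subunit of respiratory complex III, had an MA peak of 900 bp at chr19:1597219-1598118 with no NC peak over it, while its input was lower in MA, at 89.7 FPKM against 120 FPKM in NC. ZNF496 had one of 800 bp in MA, with input at 8.29 FPKM in MA and 5.61 FPKM in NC. ATF3, a stress-induced bZIP transcription factor gene, had one of 696 bp at chr1:212618542-212619237, with input at 74.8 FPKM in MA and 18.5 FPKM in NC. Both lists held a further ATF3 3′ UTR peak with the same start, 498 bp long in MA and 349 bp long in NC. In NC the longest without a partner was a peak of 1399 bp at chr14:22880115-22881513 over LRP10, a receptor of the LDL receptor family. Its input was at 25.2 FPKM in MA and 43.0 FPKM in NC. ZNF589 had one of 892 bp in NC, with input at 6.48 FPKM in MA and 8.41 FPKM in NC.

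A minority of broad peaks covered several peaks of the other list. In MA 443 (25.1%) overlapped 2 or more NC peaks, and in NC 384 (23.6%) overlapped 2 or more MA peaks. The bases were nearly as many. MA peaks over 2 or more NC peaks had a median of 1000 bp and the NC peaks under them summed to a median of 947 bp. NC peaks over 2 or more MA peaks had a median of 949 bp and the MA peaks under them summed to 900 bp. The genes differed in their inputs, where a gene was counted once for each such peak. Genes of MA peaks over 2 or more NC peaks had a median log2 input difference of 0.40, and 19.7% (16.0 to 23.8) of 426 tested were 2-fold or more higher in MA. Over all tested genes, each counted once, 10.3% were that much higher in MA and 2.98% that much lower. Genes of NC peaks over 2 or more MA peaks had a median of -0.08, and 4.07% (2.29 to 6.62) of 369 were 2-fold or more higher in MA. Genes were tested where they reached 1 FPKM in at least 1 input, 10564 of 14416.

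At loci where a single peak met a single peak, the length was about the same in both lists. Of 1431 such loci with a broad peak in at least 1 list, 714 were longer in MA, 546 were longer in NC and 171 were equal. Median lengths at these loci were 748 bp for the MA peaks and 747 bp for the NC peaks. A 2-fold or larger difference was found at 58 loci with the longer peak in MA and at 74 with the longer peak in NC. The larger number of longer MA peaks was not seen at the 726 loci where both peaks lay within 1 exon. There 314 were longer in MA, 324 were longer in NC and 88 were equal. Differences of 2-fold or more were found at 26 of them with the longer peak in MA and at 59 with the longer peak in NC.

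The pairs described next are among the largest length differences at single loci whose gene reached 5 FPKM in each of the inputs. Larger ones were found in genes below that limit. FCHSD2, an endocytic adaptor gene, had 747 bp in MA and 150 bp in NC, with input at 10.8 FPKM in MA and 6.17 FPKM in NC. EAF1, a partner of the ELL elongation factors, had 747 bp in MA and 199 bp in NC, with input at 16.4 FPKM in MA and 9.92 FPKM in NC. Both MA peaks ran over introns and both NC peaks lay within 1 exon. In the other direction MELTF, the melanotransferrin gene, had 151 bp in MA, annotated as exon, and 700 bp in NC, with input at 17.1 FPKM in MA and 36.9 FPKM in NC. XYLT1, a xylosyltransferase gene of proteoglycan synthesis, had 200 bp in MA and 749 bp in NC, with input at 5.48 FPKM in MA and 10.9 FPKM in NC. IER3, an immediate early gene, had 199 bp in MA and 693 bp in NC at near equal input, 245 FPKM in MA and 264 FPKM in NC. The shorter peak was annotated as 3′ UTR in 4 of these 5 pairs and as exon in MELTF.

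Which list held the longer peak went with the input difference of the gene. Among 46 loci of genes lower in MA by a log2 difference of 1 or more, 30.4% (17.7 to 45.8) had the longer peak in MA. The share was 31.5%, 37.8%, 51.8% and 67.0% in the steps between, and 71.9% (64.1 to 78.9) of 153 loci in genes higher in MA by 1 or more. Spearman's rho between the input difference and the log2 length ratio was 0.34 over 1418 loci. It is given as a description, since all loci share the same libraries. The input is also the denominator of each peak call, so the length and the input are not measured apart, and the part of read depth in this relation was not tested.

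**Figure D3:**
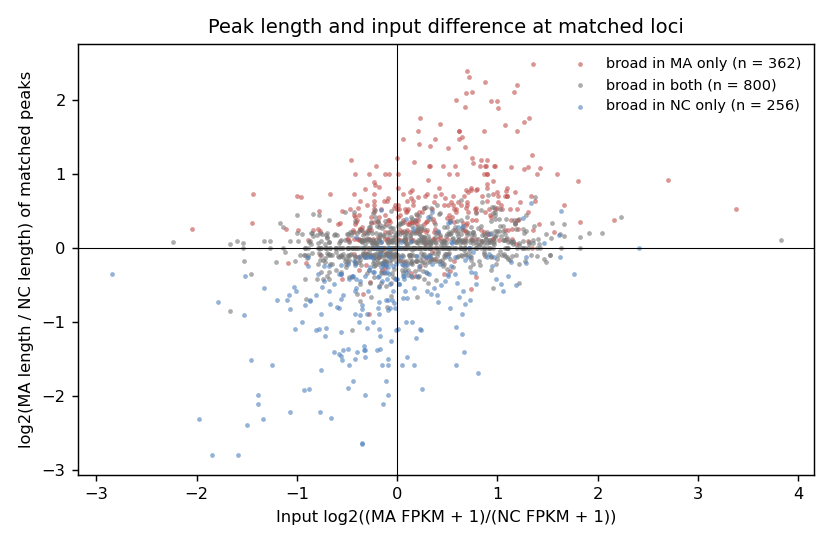
Each point is a locus where 1 MA peak meets 1 NC peak and at least 1 of them is a broad 3′ UTR peak (1418 with a tested gene); x is the input log2 difference and y the log2 ratio of MA to NC peak length. Points above 0 on y make up 71.9% at x of 1 or more and 30.4% at x of -1 or less.

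The same held for whole genes. Genes broad in MA only had a median log2 input difference of 0.37 (n = 626), genes broad in both lists 0.10 (n = 1039) and genes broad in NC only -0.09 (n = 495). Of the MA-only genes 18.5% (15.6 to 21.8) were 2-fold or more higher in MA and 1.44% that much lower. Of the NC-only genes 5.05% (3.29 to 7.37) were that much higher and 5.25% that much lower. Over all tested genes the median was 0.11, so relative to it the MA-only genes lay above and the NC-only genes below. With a pseudocount of 5 FPKM the MA-only genes 2-fold or more higher in MA were 18, against 116 with the pseudocount of 1 FPKM. Genes with a broad peak in at least 1 list lay near all tested genes. Their median was 0.12, with 11.6% higher and 2.78% lower by 2-fold, next to 0.13, 9.50% and 2.89% for genes with narrow 3′ UTR peaks only.

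**Figure D4:**
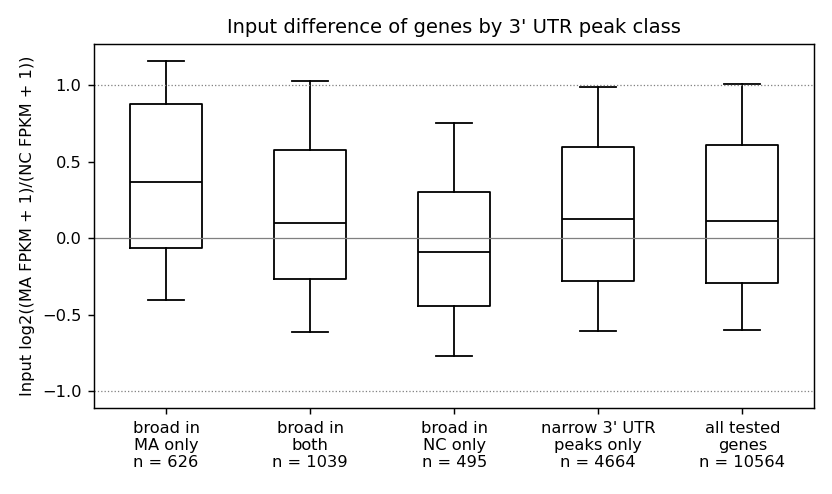
Input log2 difference of tested genes by 3′ UTR peak class; boxes span the 25th to 75th percentile with the median, whiskers the 10th to 90th, and dotted lines mark 2-fold. The MA-only median is 0.37 and the NC-only median -0.09, while genes with narrow peaks only (0.13) lie near all tested genes (0.11).

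Genes with a broad peak and the highest input differences were ARRDC3, CCN1 and KLF4. ARRDC3, an alpha-arrestin gene, was at 41.5 FPKM in MA and 0.558 FPKM in NC. It had a 3′ UTR peak of 999 bp in MA and 2 of 300 and 151 bp in NC. CCN1, a matricellular protein gene, was at 498 FPKM in MA and 34.1 FPKM in NC, and its peak was broad in both lists, at 694 bp in MA and 644 bp in NC. KLF4 was at 18.8 FPKM in MA and 0.898 FPKM in NC, with 648 bp in MA and 449 bp in NC. ZNF441, at 11.4 FPKM in MA and 0.461 FPKM in NC, had 2199 and 1250 bp in MA and narrow 3′ UTR peaks of 351 and 251 bp in NC. SLC30A1, a zinc exporter gene, was at 13.5 FPKM in MA and 1.22 FPKM in NC, and its broad peak of 850 bp in MA met an NC peak of 450 bp annotated as exon. RHOB, at 137 FPKM in MA and 17.3 FPKM in NC, was broad in both lists but had its longest peak in NC. Its 3′ UTR peaks were 1036 and 346 bp in MA and 1332 bp in NC. An exception by label was CCPG1, an ER-phagy receptor gene, at 27.0 FPKM in MA and 4.25 FPKM in NC. Its peak of 1491 bp in MA was annotated as exon and that of 1492 bp in NC as 3′ UTR, so it counted as broad in NC only.

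The lowest were NANOS1, MBP and VWA1. NANOS1, an RNA-binding repressor gene, was at 4.13 FPKM in MA and 35.8 FPKM in NC, with 546 bp in MA and 695 and 496 bp in NC. VWA1, an extracellular matrix protein gene, was at 11.6 FPKM in MA and 58.1 FPKM in NC and was broad in both lists, at 849 bp in MA and 799 bp in NC. LZTS1, a leucine zipper tumour suppressor gene, was at 18.8 FPKM in MA and 80.5 FPKM in NC, with 1251 and 600 bp in MA and 2350 and 500 bp in NC. Against this order, CLCN7, a lysosomal chloride-proton exchanger gene, was at 26.1 FPKM in MA and 106 FPKM in NC and had the longer peak in MA, 1089 bp against 496 and 248 bp in NC. MBP, the myelin basic protein gene, was at 8.40 FPKM in MA and 56.1 FPKM in NC. Its 3′ UTR peak of 649 bp in MA lay under an NC peak of 1795 bp annotated as stop codon.

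Genes with a broad peak had long recovered lengths and were of middle level. Of tested genes 15.8% had a broad peak in MA, 14.5% in NC and 20.4% in at least 1 list. The median gene length, as recovered from the FPKM values, was 4640 bp for genes broad in at least 1 list, 3832 bp for genes with narrow 3′ UTR peaks only and 3491 bp for all tested genes. Across 4 equal groups of genes by length the share with a broad peak went from 6.97% to 25.3% in MA and from 6.85% to 21.6% in NC. Across 4 equal groups by mean input level it was 12.7%, 18.8%, 19.5% and 12.1% in MA and 10.3%, 18.5%, 18.5% and 10.8% in NC. Neither trait was particular to broad peaks. By level, the share with any 3′ UTR peak was 54.5%, 64.1%, 60.8% and 41.4% in MA. In NC it was 56.1%, 64.5%, 63.1% and 44.6%. By length, that share went from 37.9% to 71.2% in MA and from 40.6% to 71.9% in NC. Recovered lengths are the smallest that give whole reads, so some are below the length that the authors used. The search for a gene's length did not go below its longest peak of any feature in either list. Gene length and peak length were therefore not measured apart, and the length values are a description only.

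Transcription factor genes often carried broad peaks. By the transcription factor column of the gene table, 184 of 493 tested factors (37.3%, 33.0 to 41.8) had one in at least 1 list, against 20.4% of all tested genes. For the zf-C2H2 family it was 52 of 105 and for bZIP factors 10 of 24. Of the 493 factors 200 had narrow 3′ UTR peaks only. Among all 10564 tested genes 2160 had a broad 3′ UTR peak and 4664 had narrow ones only. Genes named ZNF, most of which encode C2H2 zinc finger proteins, had 140 of 342 (40.9%, 35.7 to 46.3), with 114 in MA and 89 in NC. Of these 63 were broad in both lists, 51 in MA only and 26 in NC only. A 3′ UTR peak of any length was found in 281 of the 342. Inputs of ZNF genes were mostly higher in MA. The log2 difference had a median of 0.53 for the 342, with 62 of them 2-fold or more higher in MA against 2 lower. Over all tested genes the median was 0.11, with 10.3% higher and 2.98% lower. ZNF12 was at 12.6 FPKM in MA and 4.84 FPKM in NC, with 2587 and 847 bp in MA and 1443 and 548 bp in NC. ZNF318 was at 13.9 FPKM in MA and 15.5 FPKM in NC, with a 3′ UTR peak of 2538 bp and an exon peak of 947 bp in MA both of them overlapping an NC 3′ UTR peak of 2738 bp. ZNF197 had peaks of 2641 bp in MA and 1346 bp in NC while the gene table gave it 0.0344 FPKM in MA and 0.00704 FPKM in NC, far below the level of the other ZNF genes named here. Many ZNF genes are close paralogs, and whether reads were split among them was not tested. Their median recovered length was 4186 bp.

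Immediate early and Krüppel-like factor genes had the largest share of the 19 fixed lists. All 21 tested genes had a 3′ UTR peak, and 16 (76.2%, 52.8 to 91.8) had a broad one, 13 in MA and 12 in NC. Their median recovered length of 3137 bp was below that of all tested genes. Of the 21, 12 were 2-fold or more higher in MA input, with a median log2 difference of 1.17, next to 10.3% and 0.11 over all tested genes. EGR1, an immediate early zinc finger factor, had 1694 bp in MA and 1545 bp in NC, with input at 54.0 FPKM in MA and 18.0 FPKM in NC. KLF11 had 1492 bp in MA and 1293 bp in NC, with input at 30.0 FPKM in MA and 6.49 FPKM in NC. The 4 genes broad in MA only were JUNB, ATF3, KLF4 and KLF7, and the 3 broad in NC only were IER3, KLF5 and KLF10, both sets named after their values were seen. KLF5 had 448 bp in MA and 1145 bp in NC although its input was higher in MA, at 21.4 FPKM against 4.75 FPKM in NC. KLF10 is the gene whose MA stretch was divided into a 3′ UTR peak and a peak labelled 5′ UTR.

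**Figure D5:**
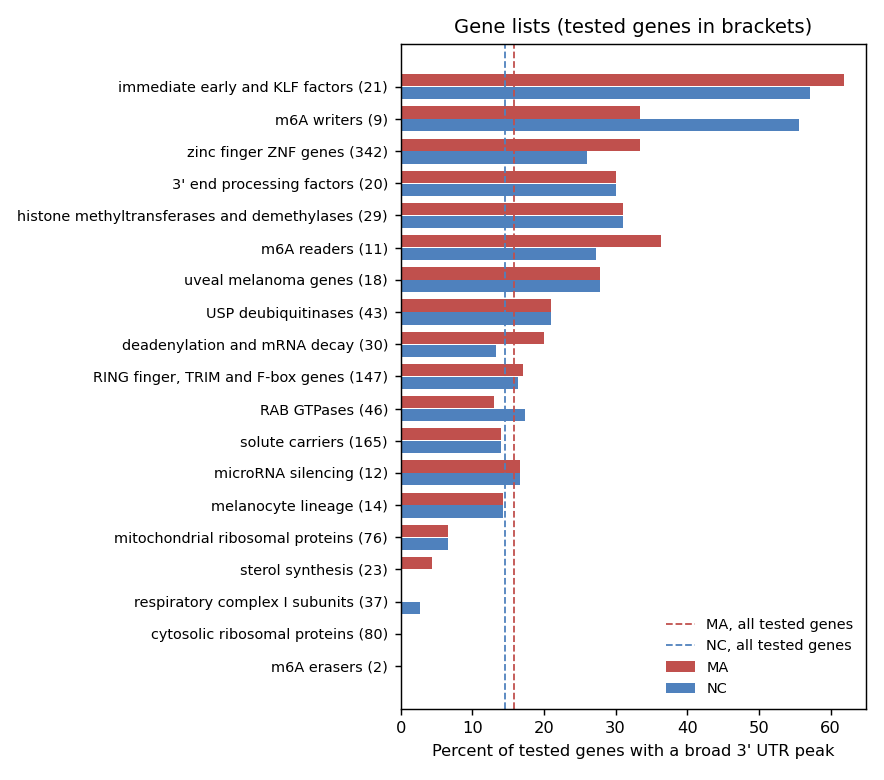
Percent of tested genes (number in brackets) with a broad 3′ UTR peak in MA and in NC for the 19 fixed gene lists, with dashed lines at the shares over all tested genes, 15.8% in MA and 14.5% in NC. Immediate early and Krüppel-like factors head the order and cytosolic ribosomal proteins are at 0.

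Some genes of the m6A machinery carried broad peaks themselves. Of 9 writers, with a median recovered length of 6624 bp, 5 (55.6%, 21.2 to 86.3) had one, 3 in MA and 5 in NC. Over all tested genes 20.4% had one in at least 1 list. METTL14, the RNA-binding partner of METTL3, had 1640 bp in MA, where NC had 746, 249 and 249 bp, with input at 5.50 FPKM in MA and 2.17 FPKM in NC. RBM15B, an adaptor of the writer complex, had a single peak of 2441 bp in NC at chr3:51392231-51394671. In MA the same stretch held 3 peaks, 349 and 399 bp in the 3′ UTR and 1345 bp annotated as exon, with input at 12.4 FPKM in MA and 18.6 FPKM in NC. METTL16, which methylates U6 and the MAT2A mRNA, had 995 bp in MA and 1044 bp in NC, and WTAP, the scaffold of the writer complex, had 750 bp in MA and 700 bp in NC. ZC3H13, another subunit, had 201 bp in MA and 750 bp in NC at similar input, 19.0 FPKM in MA and 17.1 FPKM in NC. METTL3, VIRMA, RBM15 and CBLL1 had no broad 3′ UTR peak in either list.

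Neither eraser had a broad peak. FTO was at 2.95 FPKM in MA and 2.15 FPKM in NC and had no 3′ UTR peak in MA and one of 350 bp in NC. ALKBH5 was at 22.9 FPKM in MA and 23.4 FPKM in NC, with peaks of 198 and 198 bp in MA and 346, 247 and 149 bp in NC. Of 11 tested readers 4 (36.4%, 10.9 to 69.2) had a broad peak, an interval that holds the 20.4% of all tested genes. YTHDF2, which recruits the deadenylase complex to marked mRNA, had 1689 bp in MA and 1738 bp in NC, nearly the same stretch in both lists. YTHDC2, a helicase reader, had 848 bp in MA and 200, 200 and 151 bp in NC, with input at 9.05 FPKM in MA and 2.97 FPKM in NC. HNRNPA2B1 had 851 bp in MA and 801 bp in NC, and IGF2BP2 had 600 bp in MA and 650 bp in NC as its longest. The others, YTHDC1 among them at 599 bp in MA and 451 bp in NC, had none.

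Factors that make or destroy mRNA ends gave 8 of 20 for 3′ end processing, 7 of 30 for deadenylation and decay and 2 of 12 for microRNA silencing, the last being AGO2 and DGCR8. Over all tested genes the share was 20.4%, close to those of the decay list (23.3%) and the silencing list (16.7%). CPSF2, a subunit of the cleavage and polyadenylation factor, had 1498 bp in MA and 600 bp in NC, where an exon peak of 650 bp adjoined it, with input at 9.09 FPKM in MA and 4.33 FPKM in NC. CSTF2T, a paralog of a cleavage stimulation factor subunit, had 1239 bp in NC and an exon peak of 694 bp in MA. EDC3, a decapping enhancer gene, had 697 bp in MA and an exon peak of 250 bp in NC at near equal input, 12.1 FPKM in MA and 11.6 FPKM in NC. ZFP36L1, an AU-rich element binding protein gene, had 948 bp in MA and 500 bp in NC as its longest, with input at 196 FPKM in MA and 94.8 FPKM in NC.

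Histone methyltransferases and demethylases, with a median recovered length of 8702 bp, had 11 of 29 (37.9%, 20.7 to 57.7). Over all tested genes the share was 20.4%. NSD1 had 1995 bp in MA and 2244 bp in NC, and KMT2E had 1750 bp in MA and 1600 bp in NC. KDM5B had 1495 bp in MA and 798 bp in NC, with input at 17.2 FPKM in MA and 14.3 FPKM in NC. KDM5C had a peak of 1000 bp in NC and one of 451 bp annotated as exon in MA.

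Housekeeping genes had few, next to 20.4% of all tested genes. None of 80 cytosolic ribosomal protein genes had a broad 3′ UTR peak, which allows a share of up to 4.51%, and 18 of them had any 3′ UTR peak. Respiratory complex I subunits had 1 of 37, NDUFV3, with 1047 bp in NC and an exon peak of 748 bp in MA. Mitochondrial ribosomal protein genes had 6 of 76, among them MRPL44 at 832 bp in MA and 832 bp in NC. These lists were also short in recovered length, with medians of 1024, 1072 and 1370 bp in the order given.

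Of 14 tested melanocyte lineage genes 2 had a broad peak in both lists, next to 20.4% of all tested genes in at least 1 list. In the inputs 8 of the 14 were 2-fold or more lower in MA, next to 2.98% of all tested genes. MITF, the master transcription factor of the lineage, had 949 bp in MA and 1099 bp in NC, with input at 34.8 FPKM in MA and 55.9 FPKM in NC. DCT, a melanin synthesis enzyme gene, had 1045 bp in MA and 995 bp in NC, with input at 65.2 FPKM in MA and 191 FPKM in NC. Genes of uveal melanoma, as drivers or prognostic markers, had 6 of 18 (33.3%, 13.3 to 59.0), an interval that holds the 20.4% of all tested genes. PRAME, a risk marker, had 645 bp in MA and 793 bp in NC, with input at 248 FPKM in MA and 466 FPKM in NC. MTUS1 had 1201 bp in MA and 1351 bp in NC, and SATB1 had 1051 bp in MA and 1051 bp in NC.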

How the data were processed

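Poly(A) RNA of OMM2.3 cells was fragmented and sequenced as input or after m6A immunoprecipitation, per the labels' protocols. Build GRCh38.p13 and the tools ChIPseeker, deepTools, HISAT, HISAT2 and Trimmomatic are listed with no version, per the submitters' processing notes. Which program called peaks or counted reads, with which thresholds and annotation, is not given in the sources used here. FPKM values of the inputs were computed by the authors. Each peak's p-value and false discovery rate, and its fold enrichment, the ratio of RIP over input, are deposited values per the file headers. Log10 values of the p-values were not used.

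Repeated peaks were counted once (99 rows in MA, 132 in NC) and starts were raised by 1. An overlap needed 1 bp or more and equal strands. Input differences used a pseudocount of 1 FPKM and were taken for genes reaching 1 FPKM in either input. Input totals and gene lengths were recovered from whole-read steps, which resolved 13053 of 13055 genes; the step was tested on simulated data. Of the peak genes, 7 in MA and 10 in NC were not in the gene table. Python 3.11.15, pandas 2.3.3 and scipy 1.17.1 were used.

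Members, the 19 gene lists and all rules were chosen with earlier results of these data known. Named genes are the longest, the highest in fold, those without a partner, those with 3 or more broad peaks, those at the threshold, the extremes in input and in length difference, up to 4 per list by length, and every m6A writer, eraser and reader. With 1 library a group no test was made. Intervals assume independent molecules and cover counting error only. Alternatives were other lengths, overlaps, fold limits, pseudocounts, filters and scalings. Peak sequences were not analysed here. A result on a gene of one fixed list is not reported here.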

Additional observations from a re-analysis of the deposited data

How the results depend on the processing

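Of 129 alternatives over 23 results, 53 kept the value within the range counted as unmoved and 76 moved it; none could be judged by a test. No paired analysis was possible because each group had 1 library, and no replicate could be left out. The motif counts planned for a genome of the files' build were not run, and taking exonic length in place of the width column changed nothing, since that column is exonic length. The order of MA-only above NC-only genes in median input difference held in 10 of 10 settings, broad above narrow in fold in 5 of 5 settings in each list, and the larger broad share in MA in 7 of 7.

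The broad share of 3′ UTR peaks was 28.6% in MA and 25.3% in NC at 500 bp or more, 11.1% and 9.17% at 800 bp, 6.53% and 5.15% at 1000 bp, 29.9% and 23.6% among peaks of fold 3 or more, 14.8% and 13.3% within 1 exon, and 34.7% and 29.6% for a span of 600 bp or more, an alternative chosen after seeing the data. The median length was 849 bp in MA at fold 3 or more, and as whole span 1331.5 bp in MA and 1095 bp in NC. The median fold of broad peaks was 4.07 in MA and 5.0 in NC at 500 bp, 4.50 and 5.75 at 800 bp, and 4.67 and 6.0 at 1000 bp, and 4.60 in MA within 1 exon; for narrow peaks it was 2.96 and 3.33, 3.02 and 3.56, and 3.11 and 3.67 at those lengths.

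A partner was found for 72.7% of broad MA and 72.2% of broad NC peaks when the overlap had to reach 50% of both peaks. The shares were 98.7% and 98.5% at 500 bp, 100.0% and 99.8% at 1000 bp, and 99.8% in NC at 800 bp. With the peaks of both lists limited alike, they were 97.3% and 88.0% at fold 3 or more, and 91.1% and 89.7% within 1 exon. With the other list not limited, 99.3% of one-exon broad MA peaks and 99.1% of one-exon broad NC peaks had a partner. A broad partner was found for 50.9% and 55.4% at 50% of both peaks, 55.4% and 61.6% at 800 bp, and 53.0% and 61.4% at 1000 bp. The share was 64.9% in MA at 500 bp. With both lists again limited alike, it was 57.6% and 55.9% within 1 exon and 60.6% in NC at fold 3 or more.

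With a pseudocount of 5 the MA-only genes 2-fold or more higher in MA were 18 and lower 4, the NC-only genes 12 and 6, and those broad in at least 1 list 58 and 26. With 0.1 the MA-only lower count was 15 and the NC-only higher count 39. Rescaled to a median of 0, MA-only counts were 76 and 16 and 93 genes broad in at least 1 list were lower. As TPM, 42 NC-only genes and 380 of those broad in at least 1 list were higher. The MA-only median was 0.22 with a pseudocount of 5, 0.27 at 5 FPKM or more, 0.25 rescaled and 0.47 as TPM, and the NC-only median -0.20 rescaled and -0.018 as TPM. For genes broad in at least 1 list it was 0.080 with a pseudocount of 5, 0.077 at 5 FPKM or more, 0.010 rescaled, 0.21 as TPM, 0.16 at 800 bp and 0.21 at 1000 bp. Their median input level was 12.3 FPKM in MA and 11.4 FPKM in NC at 5 FPKM or more. The cause of these moves was not tested. Depth of the RIP libraries is unknown, which limits any reading of peaks found in a single list.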

Other observations

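Lists of transport and ubiquitin genes lay between 20.6% and 30.2%, next to 20.4% over all tested genes. Deubiquitinases of the USP family had 13 of 43 (30.2%), RING finger, TRIM and F-box genes 34 of 147 (23.1%), RAB GTPases 10 of 46 (21.7%) and solute carriers 34 of 165 (20.6%). USP53 had 2141 bp in MA and 797 bp in NC, with input at 7.88 FPKM in MA and 1.54 FPKM in NC. FBXO30, an F-box gene, had 2146 bp in MA and no 3′ UTR peak in NC, with input at 1.75 FPKM in MA and 0.511 FPKM in NC. The stretch was not without an NC peak, since every broad MA peak of 1000 bp or more overlapped one. FBXO31 had 845, 498 and 448 bp in MA and a single peak of 1986 bp in NC, with input at 3.14 FPKM in MA and 4.69 FPKM in NC. RNF6, a RING ligase gene, had 400 bp in MA and 1547 bp in NC although its input was higher in MA, at 15.4 FPKM against 7.80 FPKM in NC. RAB8A, a GTPase gene of vesicle transport to the cell surface, had 1136 bp in MA and 988 bp in NC. SLC5A3, the myo-inositol transporter gene, had 1447 bp in MA and 500 bp in NC as its longest, with input at 6.07 FPKM in MA and 3.27 FPKM in NC.

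Genes with a broad peak usually had other peaks, and so did genes with narrow 3′ UTR peaks only. In MA 29.9% of the 1690 genes had no other peak, 37.9% also had an exon peak and 23.7% a 5′ UTR peak. In NC 26.0% of the 1561 genes had no other peak, 40.2% also had an exon peak and 24.8% a 5′ UTR peak.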
